A study of Homo sapiens with 15 samples.

Results

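A set of 103 genes was listed both among the genes that changed when senescent WI-38 fibroblasts received GW8510 and among those that changed when the same cells received a first siRNA against SRC, named siSRC2. The genes were chosen by presence in both of the authors' deposited tables, each of which compares one treatment with the same control, and they are 103 of the 4872 genes found in the 4 tables of the series. They make up 5.58% of the 1845 genes in the GW8510 table and 31.1% of the 331 genes in the siSRC2 table. Of the 103 genes, 66 had opposite directions in the tables and 37 had the same direction. A group of 38 genes was lower with GW8510 and higher with siSRC2, and on the log2(signal + 1) scale used below the plasminogen activator PLAT and the hyaluronan-binding protein CEMIP had the widest differences among them. Another 28 genes were higher with GW8510 and lower with siSRC2, with the widest differences on that scale for the transcription factor KLF2 and the receptor GPRC5A. The 22 genes lower with both included the protease PLAU and the fatty acid carriers FABP3 and FABP4, and the 15 genes higher with both included the collagen COL3A1.

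WI-38 is a line of human fetal lung fibroblasts that stops dividing after a limited number of divisions in culture. The 9 libraries compared came from cells at PD45, given in the labels as 45 generations and described as senescent, with 3 libraries in each group. All 9 had the transfection reagent lipo3000. The control libraries carry the treatments DMSO and NC, read as a negative-control siRNA, the siSRC2 libraries carry DMSO and an siRNA against SRC, and the GW8510 libraries carry GW8510 and NC. The GW8510 libraries have no DMSO in their labels, so the compound and the absence of DMSO cannot be told apart. The direct comparison of GW8510 with siSRC2 thus sets a compound with a control siRNA against DMSO with a SRC siRNA. How much GW8510 was given, and for how long, is not in the labels. Nothing in the labels ties the 3 libraries of a group to separate cultures, and the p-values below therefore reflect only library-to-library spread, possibly technical.

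SRC is a non-receptor tyrosine kinase at the inner face of the plasma membrane. It relays signals from integrins and growth factor receptors to focal adhesions, the actin cytoskeleton and transcription. GW8510 is a compound known to inhibit cyclin-dependent kinases, some of which drive the cell cycle while others act on RNA polymerase II. Senescent fibroblasts stay metabolically active and secrete proteases, cytokines and matrix proteins, so the plasminogen system, collagens and chemokines are commonly followed in such cells.

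Expression is the normalized signal deposited by the authors, whose unit is not stated, and levels of different genes are therefore not compared with each other. Folds are ratios between group mean signals except in sentences that name the authors' deposited table. SRC itself had signals of 18.95, 20.5 and 19.9 in the control libraries and of 11.6, 10.6 and 11.6 with siSRC2. The siSRC2 libraries all lay below the control libraries, at 57.0% of the control mean, and SRC was not listed for GW8510. The labelled cell type could be checked only on listed genes. Of 11 fibroblast markers, 5 had a value in some table, with control means from 27.0 to 3225. Of 8 epithelial markers 3 had one, of 5 adipocyte markers 2, of 5 endothelial markers 1 and of 5 leukocyte markers 1. Of 7 smooth muscle and pericyte markers 4 had one, with control means from 9.80 to 295. Of 4 neuron markers 2 had one, with control means from 0.407 to 253. In these bulk libraries, fewer cells of a type and less RNA per cell cannot be told apart.

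A gene entered a table when the authors' adjusted p was under 0.05 and its fold was 1.5 or more. The GW8510 table called 11.8% of the genes the authors tested, 4.59% higher and 7.26% lower, and the siSRC2 table called 2.64%, 1.38% higher and 1.26% lower. Both comparisons share the control libraries, so the 2 directions of a gene are not independent. In the authors' deposited tables the 38 genes lower with GW8510 and higher with siSRC2 had median log2 fold changes of -1.11 and 0.79. The 28 genes of the reverse pattern had medians of 0.84 and -0.80. The 15 genes higher with both had medians of 0.88 with GW8510 and 0.74 with siSRC2, and the 22 genes lower with both had medians of -0.95 and -0.91. The change was larger in size with GW8510 for 63 of the 103 genes and larger with siSRC2 for 40. Just inside the thresholds were SLC4A7 with a GW8510 fold of 1.5 and HFM1 with a siSRC2 fold of 1.51. Genes just outside them were not analysed here.

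**Figure D1:**
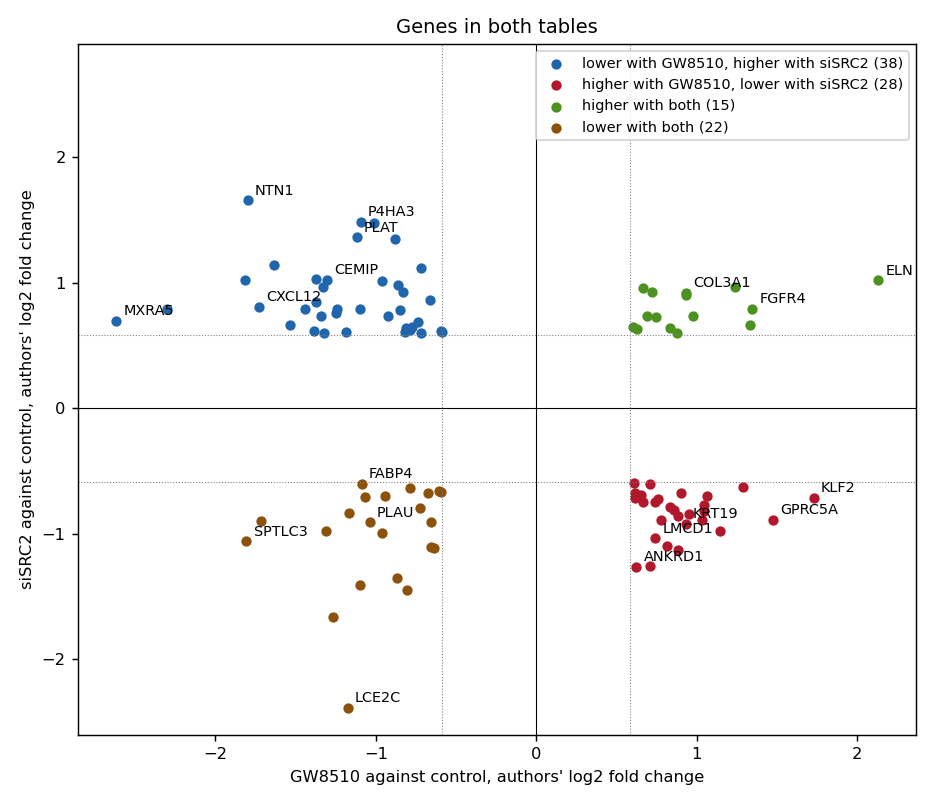
Authors' log2 fold change against control with GW8510 (horizontal axis) and with siSRC2 (vertical axis) for the 103 genes, 1 point per gene, coloured by the combination of directions, with dotted lines at a fold of 1.5. The upper left field holds 38 genes and the lower right 28, the upper right 15 and the lower left 22.

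The GW8510 libraries were then compared directly with the siSRC2 libraries, with limma on log2(signal + 1), for the 94 genes whose signal averaged 1 or more over the 9 libraries. The p-values were adjusted with the number of tests set to 15574, the number of genes tested by the authors. Genes that were not fitted counted as not differing, so a large adjusted p does not show equal levels. The test called 55 of the 94 genes (58.5%), 24 higher with GW8510 than with siSRC2 (25.5%) and 31 lower (33%). All 55 had opposite directions in the tables, where they make up 55 of 60 genes tested (91.7%). For these genes the choice of members already sets the groups apart, and their differences are given below as sizes, without p-values. The 5 not called were LSAMP, GRIA4, LEF1, WWC1 and ANKRD1. On this scale genes of low signal are held down: by the ratio of mean signals alone, NTN1 (12.7-fold) and MXRA5 (11.2-fold) had wider gaps than PLAT (6.30-fold). So did the tested genes TNFSF18 (9.53-fold), DIO2 (7.96-fold), P4HA3 (6.91-fold), CXCL12 (6.47-fold) and SCG2 (6.39-fold). Of the 34 tested genes that moved the same way in both tables, 0 were called (0%) and 7 had an unadjusted limma p under 0.05. That count rests on adjusting for as many genes as the authors tested, and adjusting over the 94 fitted genes alone gave 6. Those 94 include the 60 opposite genes, which the choice of members sets apart. Their small p-values ease the threshold for the same-direction genes, so the 6 is not a count from these genes alone. Their 95% intervals lay within a 2-fold difference in either direction on this scale for 28 genes and within a 1.5-fold difference for 17, so that for the other genes a difference of that size is not shown to be absent. Counted on the deposited signals alone, the GW8510 and siSRC2 libraries did not overlap for 76 of the 103 genes (73.8%). These were all 66 genes with opposite directions (100%) and 10 of 37 with the same direction (27%). An exact permutation test of 3 libraries against 3 cannot give a two-sided p under 0.1.

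The plasminogen system held members of 3 patterns. This extracellular cascade turns plasminogen into plasmin, which degrades fibrin and matrix. PLAT (ENSG00000104368), the tissue-type activator, had signals of 131, 133 and 138 in the control libraries, of 48.8, 54.1 and 69.4 with GW8510 and of 380, 362 and 344 with siSRC2. The groups did not overlap, with GW8510 below and siSRC2 above the control. The mean was 2.33-fold lower than control with GW8510 and 2.70-fold higher with siSRC2, and the direct difference on the log2(signal + 1) scale was -2.65 ± 0.127 (SE), a 6.30-fold gap in signal. PLAU (ENSG00000122861), the urokinase-type activator, was at 450, 431 and 379 in the control, at 182, 190 and 191 with GW8510 and at 233, 228 and 232 with siSRC2. Both treatments lay below the control, and GW8510 lay below siSRC2 in every library. The direct difference for PLAU was -0.30 (95% interval -0.51 to -0.09, limma adjusted p = 1). SERPINB7, a member of the serpin family of mostly protease inhibitors, was at 43.3, 44.5 and 41.6 in the control, at 72.8, 83.9 and 55.8 with GW8510 and at 24.2, 26.1 and 21.8 with siSRC2. Its pattern was the mirror image of that of PLAT. In the whole tables, this list had 2 genes higher and 4 lower with GW8510, and 3 higher and 3 lower with siSRC2.

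**Figure D2:**
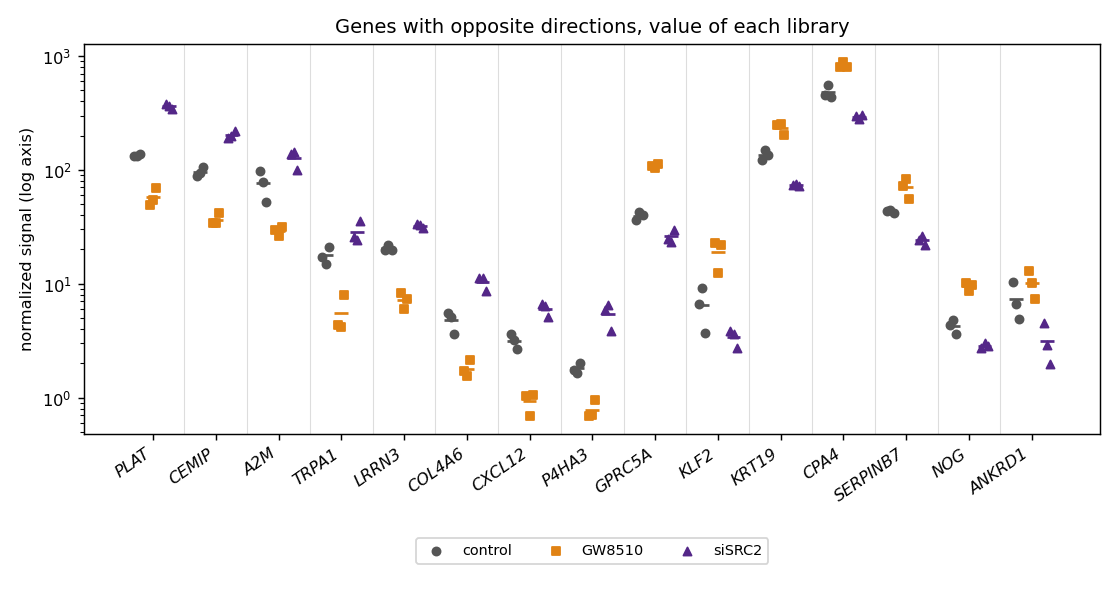
Normalized signal (log axis) of 15 genes with opposite directions, 1 symbol per library for the 3 control, 3 GW8510 and 3 siSRC2 libraries, with bars at the group means. PLAT lies at 57.4 with GW8510, 134 in the control and 362 with siSRC2, and GPRC5A at 108, 39.6 and 26.0 in the same order.

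Among genes that act on the matrix, picked here for what they are known to do and not from a list, CEMIP, A2M and CPA4 had opposite directions and ADAMTSL1 had the same direction. CEMIP (ENSG00000103888), which takes part in hyaluronan breakdown, had signals of 88.2, 94.7 and 105 in the control, of 34.2, 33.9 and 41.6 with GW8510 and of 189, 199 and 221 with siSRC2. The 3 groups stood apart, with a direct difference of -2.45 ± 0.120. A2M, which encodes a broad protease inhibitor, was at 98.5, 78.0 and 51.9 in the control, at 29.7, 26.3 and 31.6 with GW8510 and at 137, 142 and 100 with siSRC2. The GW8510 libraries lay well below the others, while the lowest siSRC2 library lay just above the highest control library. CPA4, a secreted carboxypeptidase, went the other way, with a mean of 831 ± 52.4 (SD, n = 3) with GW8510, 480 ± 62.2 in the control and 293 ± 11.8 with siSRC2. ADAMTSL1, an ADAMTS-like matrix protein without protease activity, fell with both, from 6.05 ± 0.681 to 4.42 ± 0.429 with GW8510 and 4.36 ± 0.232 with siSRC2. Among all listed matrix proteases and inhibitors, 2 were higher and 11 lower with GW8510, and 5 were higher and 1 lower with siSRC2. ADAMTSL1 was the one gene of that list in both tables.

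Of the 4 members from the collagen and other matrix lists, 2 had the same direction and 2 had opposite ones. COL3A1 (ENSG00000168542), the fibrillar type III collagen, was at 108, 114 and 122 in the control, at 182, 188 and 236 with GW8510 and at 201, 222 and 252 with siSRC2. Both treatments were above the control in all libraries and overlapped each other, and the direct difference was -0.16 (95% interval -0.44 to 0.13, limma adjusted p = 1). ELN, the elastic fibre protein elastin, was at 0.470, 0.710 and 0.620 in the control, at 2.30, 3.17 and 2.91 with GW8510 and at 1.17, 1.85 and 0.690 with siSRC2. The GW8510 libraries were the highest and 1 siSRC2 library lay within the control range. Its direct difference was 0.79 (95% interval 0.39 to 1.19, limma adjusted p = 0.319), and it passed the threshold without the second siSRC2 library (1.20, limma adjusted p = 0.0347).

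COL4A6, a chain of basement membrane collagen, and P4HA3, a catalytic subunit of collagen prolyl hydroxylase, went opposite ways. COL4A6 had control signals of 5.52, 5.14 and 3.62, against 1.72, 1.55 and 2.12 with GW8510 and 11.2, 11.3 and 8.57 with siSRC2. P4HA3 had control signals of 1.76, 1.65 and 2.01, against 0.690, 0.700 and 0.960 with GW8510 and 5.93, 6.47 and 3.84 with siSRC2. For both genes the 3 groups did not overlap, and siSRC2 libraries were the highest. In the whole tables, collagens and their processing enzymes were higher in 3 and lower in 8 cases with GW8510, and higher in 8 and lower in 0 with siSRC2. Other matrix proteins were higher in 7 and lower in 9 with GW8510, and higher in 6 and lower in 0 with siSRC2. Of the remaining secreted or matrix-associated members, FIBIN had a mean of 24.2 with GW8510, 39.7 in the control and 63.0 with siSRC2. MAMDC2, which encodes a secreted protein with MAM domains, had means of 33.0, 19.7 and 11.2 in the same order. MXRA5, a matrix-remodelling protein, was too low for the test, at 0.150 with GW8510, 1.0 in the control and 1.68 with siSRC2.

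Of the 3 cytokine and chemokine members 2 had opposite directions, and of the 2 growth factor and receptor kinase members 1 had, beside 66 of 103 over all members. CXCL12 (ENSG00000107562), a chemokine that attracts cells bearing CXCR4, had control signals of 3.58, 3.23 and 2.67, signals of 1.04, 0.690 and 1.05 with GW8510 and of 6.61, 6.33 and 5.05 with siSRC2. The 3 groups were apart, with a direct difference of -1.86 ± 0.146 and a 6.47-fold gap in signal. The cytokine TNFSF18, also lower with GW8510 and higher with siSRC2, had means of 0.330, 1.74 and 3.14 with GW8510, in the control and with siSRC2. PDGFD, a platelet-derived growth factor ligand, had means of 0.527, 1.10 and 2.32 in that order. SEMA6D, a transmembrane semaphorin, had means of 1.62, 4.35 and 7.76, and the guidance cue NTN1, which was too low for the test, had means of 0.0600, 0.233 and 0.760. IL7R, the interleukin 7 receptor chain, instead fell with both, from 41.3, 37.7 and 33.6 in the control to 24.0, 20.7 and 21.0 with GW8510 and 24.3, 25.2 and 23.4 with siSRC2. The treated groups overlapped, with a direct difference of -0.15 (95% interval -0.40 to 0.11, limma adjusted p = 1).

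FGFR4, a fibroblast growth factor receptor, was higher with both, at 3.49, 3.76 and 5.68 in the control, 6.46, 6.50 and 11.4 with GW8510 and 6.02, 5.90 and 6.75 with siSRC2. The control and treated libraries stood apart, but the treated groups overlapped. HLA-DMA, which helps load peptides on class II molecules, rose from 4.26 ± 0.361 to 7.29 ± 0.882 with GW8510 and to 8.32 ± 0.318 with siSRC2. Cytokine and chemokine genes in the whole tables were higher in 3 and lower in 17 cases with GW8510, and higher in 4 and lower in 2 with siSRC2.

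Members of the TGF-beta, BMP and WNT list all went opposite ways. NOG, the secreted BMP antagonist noggin, had control signals of 4.37, 4.79 and 3.63, against 10.2, 8.63 and 9.74 with GW8510 and 2.72, 2.99 and 2.84 with siSRC2. GW8510 libraries were the highest and siSRC2 libraries the lowest, without overlap. TGFB3, a TGF-beta ligand, followed the same order, at 2.62 ± 0.229 with GW8510, 1.38 ± 0.0379 in the control and 0.870 ± 0.265 with siSRC2. LEF1, a transcription factor at the end of WNT signalling, had the reverse order, at 2.30 ± 0.935, 3.86 ± 0.551 and 5.56 ± 0.959. Its direct difference was -1.03 (95% interval -1.50 to -0.55). The whole list had 9 genes higher and 10 lower with GW8510, and 3 higher and 3 lower with siSRC2.

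Genes known from muscle and the cytoskeleton were divided. The 3 members of the actin and muscle-type list, ANKRD1, KRT19 and SYNPO2, were all higher with GW8510 and lower with siSRC2. Over all members 28 of 103 had this pattern. The whole list had 7 genes higher and 4 lower with GW8510, and 1 higher and 3 lower with siSRC2. KRT19 (ENSG00000171345), an intermediate filament protein typical of epithelium, was at 123, 148 and 134 in the control, at 249, 251 and 204 with GW8510 and at 73.3, 75.1 and 72.3 with siSRC2. The 3 groups were clearly separate, with a direct difference of 1.65 ± 0.115. KRT19 was the only 1 of 8 epithelial markers in either of these tables, and the part of other cell types in its values was not tested. ANKRD1 (ENSG00000148677), a cardiac ankyrin repeat protein known to respond to YAP and to TGF-beta, was at 10.2, 6.67 and 4.93 in the control, at 12.9, 10.2 and 7.34 with GW8510 and at 4.51, 2.92 and 1.95 with siSRC2. Here GW8510 and control libraries overlapped and siSRC2 lay below both. Its direct difference was 1.45 (95% interval 0.82 to 2.08), and whether the test called it depended on the replicate block and on 1 siSRC2 library, without which it was 1.68.

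SYNPO2, an actin-bundling protein, had means of 1.96 with GW8510, 1.17 in the control and 0.707 with siSRC2. LMCD1, a LIM-domain protein of striated muscle, had means of 46.8, 28.3 and 13.5, and the small heat shock protein CRYAB had means of 25.5, 17.8 and 10.7. CKB, the brain-type creatine kinase, was at 182 ± 14.4, 107 ± 2.80 and 69.3 ± 1.74. Picked after their values were seen, 3 other genes known from muscle were lower with both. The Z-disc protein MYOZ2 had means of 1.48 with GW8510, 3.45 in the control and 1.35 with siSRC2. LDB3, another Z-disc protein, had means of 0.887, 2.68 and 1.32, and the dystrobrevin DTNA had 4.0, 7.96 and 4.48. For LDB3 the highest siSRC2 library, at 1.76, lay above the lowest control library, at 1.68.

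Promoter sequence is shown for 4 members because ANKRD1 is a well-known target of TEAD factors, the DNA-binding partners of YAP, and because these promoters hold 2 or more motif matches. RefSeq promoters (GRCh38.p14) were matched by symbol for 70 members, and the 250 bases before each start were searched on both strands for GGAATG, a TEAD motif, TGANTCA, an AP-1 motif, and TTGGCGC, an E2F motif. The TEAD letters were found in 10 of the 70 (14.3%) against 11.9% of all 27305 promoters. They were in 5 of 18 promoters of genes higher with GW8510 and lower with siSRC2 (27.8%). The reverse pattern had them in 2 of 28 (7.14%), genes higher with both in 1 of 9 (11.1%) and genes lower with both in 2 of 15 (13.3%). AP-1 letters were found in 7 of the 70 (10%) against 6.6% of all promoters, and E2F letters in 0 against 2.63%. A match describes letters in this window and is not a binding site. Each sequence is written 5′ to 3′ on the strand of the gene, with the motif letters in capitals. ANKRD1 lies at chr10:90921088-90921337 (minus strand), CPA4 at chr7:130292911-130293160 (plus), MAMDC2 at chr9:70043331-70043580 (plus) and TBXAS1 at chr7:139829014-139829263 (plus).
ANKRD1: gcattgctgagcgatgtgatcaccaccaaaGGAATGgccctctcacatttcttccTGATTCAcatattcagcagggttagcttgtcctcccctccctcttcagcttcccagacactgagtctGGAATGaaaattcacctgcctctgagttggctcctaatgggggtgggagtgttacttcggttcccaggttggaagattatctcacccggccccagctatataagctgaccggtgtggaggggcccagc
CPA4: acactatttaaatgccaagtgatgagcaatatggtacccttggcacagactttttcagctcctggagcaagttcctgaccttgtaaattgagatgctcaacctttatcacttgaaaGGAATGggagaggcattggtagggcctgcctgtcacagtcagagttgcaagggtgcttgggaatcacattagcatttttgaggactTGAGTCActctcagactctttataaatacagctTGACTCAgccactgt
MAMDC2: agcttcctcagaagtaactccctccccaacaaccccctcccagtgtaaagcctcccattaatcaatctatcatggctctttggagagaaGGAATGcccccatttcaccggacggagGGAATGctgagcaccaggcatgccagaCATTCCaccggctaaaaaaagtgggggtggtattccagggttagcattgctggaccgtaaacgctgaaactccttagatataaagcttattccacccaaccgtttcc
TBXAS1: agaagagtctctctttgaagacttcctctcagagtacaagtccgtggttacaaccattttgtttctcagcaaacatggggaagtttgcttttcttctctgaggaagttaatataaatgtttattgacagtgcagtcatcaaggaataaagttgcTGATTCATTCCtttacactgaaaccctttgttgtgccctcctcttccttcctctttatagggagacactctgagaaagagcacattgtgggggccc
In ANKRD1 the TEAD letters start 220 and 128 bases before the start and the AP-1 letters 195 bases before it. CPA4 has AP-1 letters 48 and 15 bases and TEAD letters 134 bases before the start. MAMDC2 has TEAD letters 3 times, at 161, 134 and 107 bases, with a constant spacing of 27 bases. These 3 genes were higher with GW8510 and lower with siSRC2. TBXAS1, which had the reverse pattern, has an AP-1 and a TEAD match that overlap, at 96 and 91 bases. The remaining TEAD matches among opposite genes were in CKB, SYNPO2 and LRRN3, with LRRN3 lower with GW8510.

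The transcription factor KLF2 and the receptor GPRC5A had the widest tested differences in favour of GW8510. KLF2 (ENSG00000127528), a Krüppel-like factor known from flow responses of endothelium, had control signals of 6.58, 9.24 and 3.68, signals of 22.6, 12.4 and 21.9 with GW8510 and of 3.81, 3.60 and 2.70 with siSRC2. GW8510 libraries were all above the control, while siSRC2 overlapped with the lowest control library. The direct difference was 2.16 ± 0.290. Without the third siSRC2 library it was 2.04 and no longer called. GPRC5A (ENSG00000013588), an orphan receptor induced by retinoic acid, was at 36.0, 42.4 and 40.5 in the control, at 109, 103 and 113 with GW8510 and at 24.8, 23.4 and 29.9 with siSRC2. The groups did not overlap and the replicates were tight, with a direct difference of 2.02 ± 0.119. The adhesion receptor ADGRG6, too low for the test, had means of 1.28, 0.963 and 0.353 with GW8510, in the control and with siSRC2. NPAS1, a basic helix-loop-helix transcription factor, had 19.4, 9.68 and 5.46, and WWC1, a scaffold of the Hippo pathway, had 6.21, 4.78 and 3.23. The direct difference of WWC1, 0.77, was the smallest tested among the genes with this pattern.

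Of the 5 members of the solute carrier and ion channel list, 4 were lower with GW8510 and higher with siSRC2. TRPA1, which the list does not hold, had the same pattern. TRPA1 (ENSG00000104321), a cation channel gated by irritants, had control signals of 17.2, 14.9 and 21.0, signals of 4.36, 4.15 and 7.94 with GW8510 and of 25.7, 24.0 and 35.8 with siSRC2. No library of one group fell within another group, and the direct difference was -2.21 ± 0.231. SLC4A7, a sodium bicarbonate cotransporter, was at 8.25, 7.16 and 7.85 in the control, at 4.56, 4.69 and 4.84 with GW8510 and at 14.2, 12.5 and 10.7 with siSRC2. Its GW8510 libraries lay closely together below the control. GRIA4, a glutamate receptor subunit, had means of 0.580, 1.01 and 2.40, with a direct difference of -1.09. The mechanosensitive channel PIEZO2 and the sodium channel SCN7A were too low for the test. PIEZO2 had means of 0.503 with GW8510, 1.04 in the control and 1.29 with siSRC2, and SCN7A had 0.0833, 0.283 and 0.503. For GRIA4 and PIEZO2 the control libraries overlapped with those of both treatments, so their directions rest on the authors' deposited fold changes. Of the other opposite genes given only as means, ADGRG6, MAMDC2 and SRD5A1 had GW8510 libraries that overlapped with the control. CHL1 had siSRC2 libraries that did. KCNK2, a background potassium channel, was lower with both, at 2.49 ± 0.327 with GW8510, 4.41 ± 0.860 in the control and 1.94 ± 0.403 with siSRC2. In the whole tables this list had 23 genes higher and 43 lower with GW8510, and 7 higher and 5 lower with siSRC2.

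Several genes known from neurons, chosen after their values were seen, had the pattern of TRPA1. They do not stand for neuronal genes as a set. Of 4 neuron markers, 1 was listed for GW8510, where it was higher, at 453 against 253 in the control, and 0 for siSRC2. LRRN3, a leucine-rich repeat membrane protein of neurons, was at 19.7, 21.8 and 19.8 in the control, at 8.20, 6.02 and 7.34 with GW8510 and at 33.6, 32.6 and 30.8 with siSRC2. TMEM35A, a membrane protein that assists assembly of nicotinic receptors, was at 15.6, 18.9 and 15.2, at 4.63, 6.31 and 7.0 and at 30.6, 28.3 and 26.5. For both genes the groups were separate. CHL1, a cell adhesion molecule of the L1 family, had means of 2.24 with GW8510, 5.30 in the control and 8.59 with siSRC2, and the granule protein SCG2 had 1.32, 2.92 and 8.44. LSAMP, a neuronal adhesion protein, had 0.867, 1.54 and 3.19, with a direct difference of -1.14. CALB2, the calcium-binding protein calretinin, was lower with both, at 3.89 ± 0.458 with GW8510, 9.25 ± 1.75 in the control and 5.49 ± 0.732 with siSRC2. NPAS1, also named for neurons, had the reverse pattern, with means of 19.4, 9.68 and 5.46 in the same order.

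Lipid carriers and enzymes were lower with both treatments in 4 of the 5 members of their list, beside 22 of 103 over all members. The whole list had 13 genes higher and 16 lower with GW8510, and 4 higher and 6 lower with siSRC2. FABP4 (ENSG00000170323), a fatty acid carrier best known from adipocytes and macrophages, had control signals of 90.5, 92.5 and 88.9, signals of 42.2, 41.8 and 32.9 with GW8510 and of 64.2, 67.9 and 53 with siSRC2. Every GW8510 library lay below every siSRC2 library, and both groups lay below the control. The direct difference was -0.65 (95% interval -0.94 to -0.36), which did not pass the test (limma adjusted p = 0.123). FABP4 was 1 of 5 adipocyte markers in these tables. FABP3, the heart-type carrier, was at 25.7, 24.8 and 17.3 in the control, 19.8, 12.1 and 10.4 with GW8510 and 12.6, 10.8 and 8.15 with siSRC2. Its GW8510 libraries overlapped with both other groups. ALDH1A3, which makes retinoic acid, had means of 0.673 with GW8510, 2.11 in the control and 0.793 with siSRC2, and SPTLC3, a subunit of serine palmitoyltransferase, had 0.340, 1.46 and 0.700. For both genes the siSRC2 libraries overlapped with the control.

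**Figure D3:**
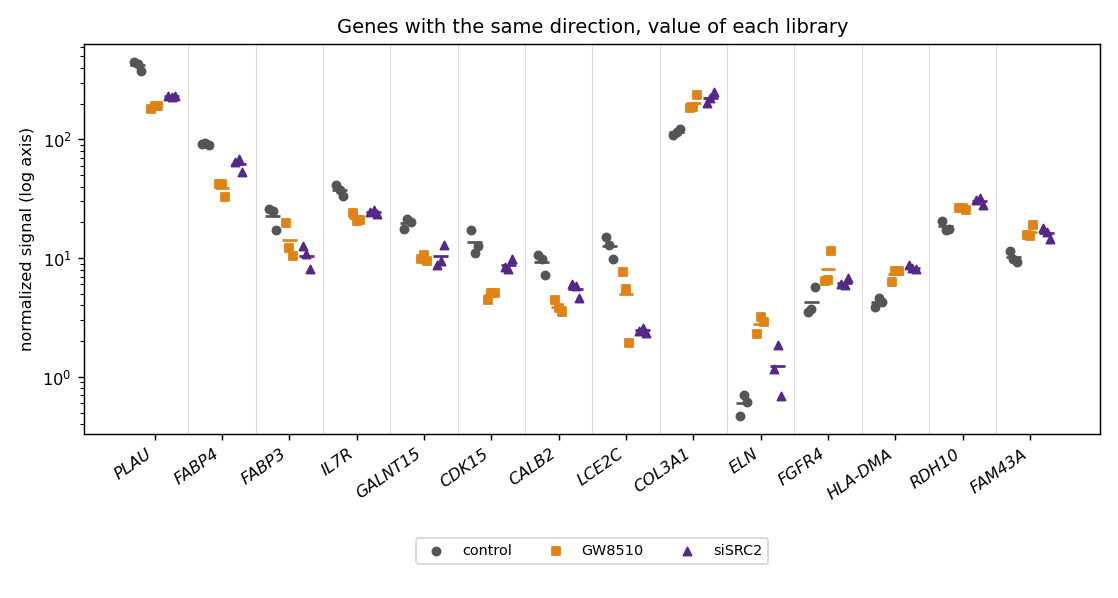
Normalized signal (log axis) of 14 genes with the same direction, 1 symbol per library for the 3 control, 3 GW8510 and 3 siSRC2 libraries, with bars at the group means. PLAU lies at 187 with GW8510, 420 in the control and 231 with siSRC2, and COL3A1 at 202, 115 and 225.

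Of the enzymes that act on steroids, thyroid hormone, thromboxane or retinoids, grouped after their values were seen, HSD17B2, SRD5A1, DIO2 and TBXAS1 had opposite directions, while RDH10 and ALDH1A3 had the same direction. HSD17B2, which inactivates oestradiol and testosterone, was at 12.0, 11.4 and 17.9 in the control, at 5.34, 5.66 and 10.5 with GW8510 and at 26.4, 24.2 and 28.5 with siSRC2. The siSRC2 libraries lay well above the others. SRD5A1, a steroid 5-alpha reductase, had means of 8.38, 12.7 and 22.4, and DIO2, which activates thyroid hormone, had 0.710, 1.98 and 5.65, in the order GW8510, control and siSRC2. TBXAS1, the thromboxane synthase, was at 8.63 ± 1.71, 20.9 ± 2.62 and 34.6 ± 5.51. RDH10, which oxidizes retinol, was higher with both, at 26.1 ± 0.533 with GW8510, 18.5 ± 1.73 in the control and 30.5 ± 2.11 with siSRC2.

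The metallothioneins, small metal-binding proteins, were represented by MT1X and the related pseudogene MT1L. MT1X was at 79.4, 71.5 and 67.2 in the control, at 35.2, 36.8 and 34.6 with GW8510 and at 123, 118 and 96.3 with siSRC2. MT1L had means of 29.5 with GW8510, 59.1 in the control and 113 with siSRC2. The groups of both genes were separate, but near-identical copies in this family could share reads. NDUFAF8 (ENSG00000224877), an assembly factor of mitochondrial complex I, went the other way, at 180, 160 and 182 in the control, 242, 316 and 263 with GW8510 and 75.3, 76.1 and 105 with siSRC2. Its libraries also formed 3 separate groups. Also higher with GW8510 and lower with siSRC2 were CARS2, the mitochondrial cysteinyl-tRNA synthetase, with means of 80.6, 63.1 and 41.6, and CTU1, a tRNA-thiolating enzyme, with 5.75, 3.78 and 2.32.

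Cell cycle genes contributed 1 member. CDK15, of the cyclin-dependent kinase family, was lower with both, at 17.3, 11.1 and 12.7 in the control, 4.48, 5.07 and 5.10 with GW8510 and 8.48, 8.05 and 9.79 with siSRC2. The GW8510 libraries lay below all siSRC2 libraries, yet the direct difference of -0.73 (95% interval -1.09 to -0.37) did not pass the test (limma adjusted p = 0.243). In the whole tables, 38 mitosis and cell cycle genes were higher and 8 lower with GW8510, against 3 higher and 4 lower with siSRC2. Listed genes of replication and repair were 11 higher and 6 lower with GW8510, and 1 higher and 1 lower with siSRC2, with no member in both. The list of SRC, PAK and JAK kinases and their partners had 3 genes higher and 2 lower with GW8510 and SRC as the 1 gene lower with siSRC2, so no gene was shared.

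**Figure D4:**
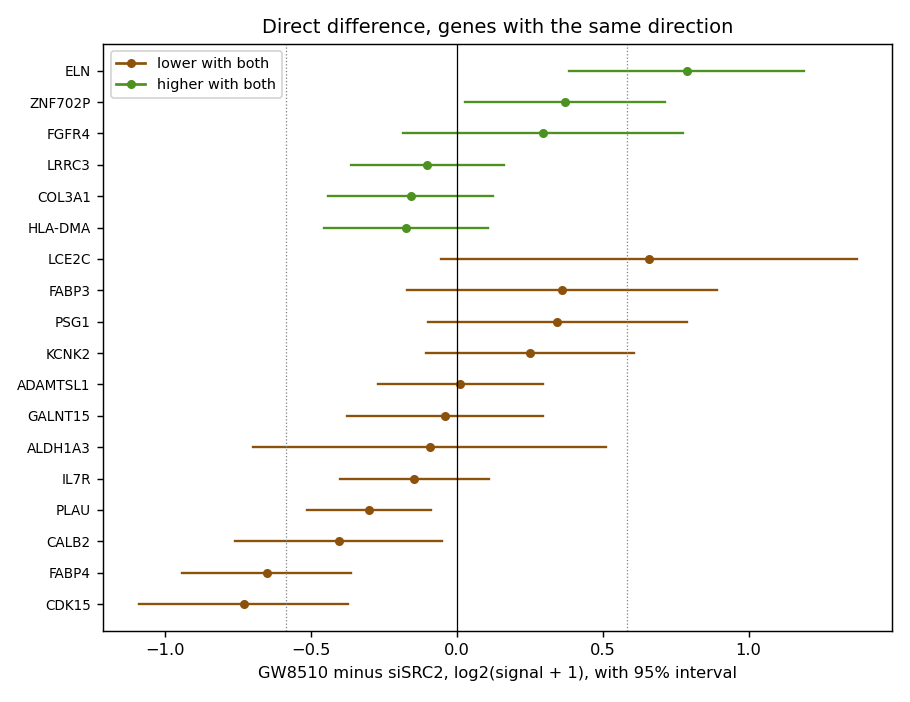
Direct difference between GW8510 and siSRC2 on the log2(signal + 1) scale, as the limma estimate with its 95% interval, for the 18 tested genes with the same direction that belong to a gene list or were named by rule; dotted lines mark a 1.5-fold difference. The estimates run from -0.73 (CDK15) to 0.79 (ELN), and none passed the adjusted test.

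Zinc finger genes in both tables were ZNF578 and the pseudogene ZNF702P, both higher with both treatments. ZNF702P had means of 11.1 with GW8510, 6.92 in the control and 8.34 with siSRC2, and ZNF578, too low for the test, had 0.873, 0.587 and 1.10. The whole list differed between the tables, with 14 genes higher and 36 lower with GW8510 and 15 higher and 1 lower with siSRC2, a difference that was not tested. Of the 4 listed long noncoding RNAs in both tables, 3 had the pattern of KRT19. LINC00452, CRIM1-DT and SEC61G-DT had means of 20.1, 47.0 and 29.8 with GW8510, 10.4, 26.3 and 19.6 in the control and 5.62, 16.0 and 12.0 with siSRC2. LINC02035 had the reverse order, at 1.07, 1.99 and 3.24.

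The other genes lower with GW8510 and higher with siSRC2 fell in no list. LPP, a LIM protein of focal adhesions, was at 7.37, 7.51 and 6.09 in the control, 5.10, 3.65 and 4.99 with GW8510 and 15.7, 18.2 and 13.4 with siSRC2, with the siSRC2 libraries far above the rest. PRKAR2B, a regulatory subunit of protein kinase A, had means of 1.66 with GW8510, 4.12 in the control and 6.46 with siSRC2, and SSX2IP, a protein of centrosomes and cell junctions, had 7.16, 12.3 and 19.7. The tetraspanin TSPAN11, the fibrinogen-like protein FGL2, PLXDC2, SUSD5 and TLCD2 had GW8510 means from 0.903 to 1.88 and siSRC2 means from 3.06 to 8.70. For each of these 5 genes the libraries of the 2 treatments did not overlap.

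Of the unlisted genes with the reverse pattern, ADIRF, a factor named for adipogenesis, was at 84.9, 69.9 and 86.0 in the control, 108, 113 and 97.4 with GW8510 and 50.7, 40.3 and 41.1 with siSRC2, in 3 separate groups. C8orf82 had means of 32.4 with GW8510, 22.1 in the control and 13.4 with siSRC2, and GSG1, a gene named for germ cells, had 10.1, 5.96 and 3.14. SH3TC2, an adaptor of Schwann cells, had 4.45, 2.55 and 1.56. The pseudogene CEACAMP10, which resembles its functional relatives closely and is uncertain, had 10.1, 5.59 and 2.79, and ENSG00000279689, too low for the test, had 1.35, 0.793 and 0.373.

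Further genes lower with both were GALNT15, an enzyme that starts O-linked glycosylation, LGALS8, a galectin, and MOK, a kinase related to MAP kinases. GALNT15 had means of 9.94 with GW8510, 19.8 in the control and 10.4 with siSRC2. LGALS8 had means of 14.8, 24.5 and 17.5, and MOK had 20.7, 36.3 and 18.6. LCE2C and PSG1 belong to families with near-identical copies and are uncertain, with means of 4.99 and 22.6 with GW8510, 12.7 and 40.3 in the control and 2.46 and 17.6 with siSRC2. MCTP1, a calcium-binding membrane protein, had means of 0.750, 2.05 and 1.24, the protocadherin PCDHGC5, too low for the test, had 0.573, 1.10 and 0.423, and ENSG00000237807 had 2.54, 3.42 and 2.33. Near-identical copies or shared exons were noted for 9 of the 103 genes, and 33 had exons that overlap a gene on the opposite strand, whose reads cannot be told apart without strand-specific counting. Of the other genes higher with both, FAM43A had means of 16.6 with GW8510, 10.2 in the control and 16.3 with siSRC2, PHETA1, an endosomal adaptor, had 9.85, 7.32 and 11.3, and LRRC3 had 2.02, 1.31 and 2.25. ENSG00000285901 had 5.13, 2.37 and 4.78. RN7SL2 and SERF1B have near-identical copies, and their libraries scattered widely, from 182 to 442 for RN7SL2 with GW8510 and from 6.87 to 26.4 for SERF1B with siSRC2. HFM1, a helicase known from meiosis, had control, GW8510 and siSRC2 means of 457, 727 and 682, and its exons are among those that overlap an opposite gene. ARMCX4 was higher with GW8510 in the authors' deposited table, but its mean signal was lower, at 0.787 against 1.07 in the control. By the ratio of mean signals, 36 genes had the same direction and 67 opposite ones.

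The scale of the deposited fold changes differed from that of the signals. The authors' log2 fold change exceeded the log2 ratio of mean signals by a median of 0.12 with GW8510 and fell below it by a median of 0.05 with siSRC2, a shift of 0.17 between the treatments. With the groups moved by that shift, 56 genes were called in the direct comparison and 0 with the same direction. The sign of the small direct differences turned under it for COL3A1, from -0.16 to 0.0072, for IL7R, from -0.15 to 0.013, and for GALNT15, from -0.040 to 0.11, while PLAU stayed lower with GW8510, at -0.14.

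Transcript length and base composition moved with the direction. The longest GENCODE transcript had a median GC content of 43.7% and a median length of 5490.5 bases for the 38 genes lower with GW8510 and higher with siSRC2, and of 52.9% and 2296.5 bases for the 28 genes of the reverse pattern. Genes higher with both had medians of 52.1% and 3435 bases, and genes lower with both of 48.7% and 3866.5 bases. Genes listed for GW8510 alone had a median GC content of 55.4% when higher and 41.5% when lower, and those listed for siSRC2 alone of 47.7% when higher and 53.3% when lower. The part of length and composition in the opposite directions was not tested.

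**Figure D5:**
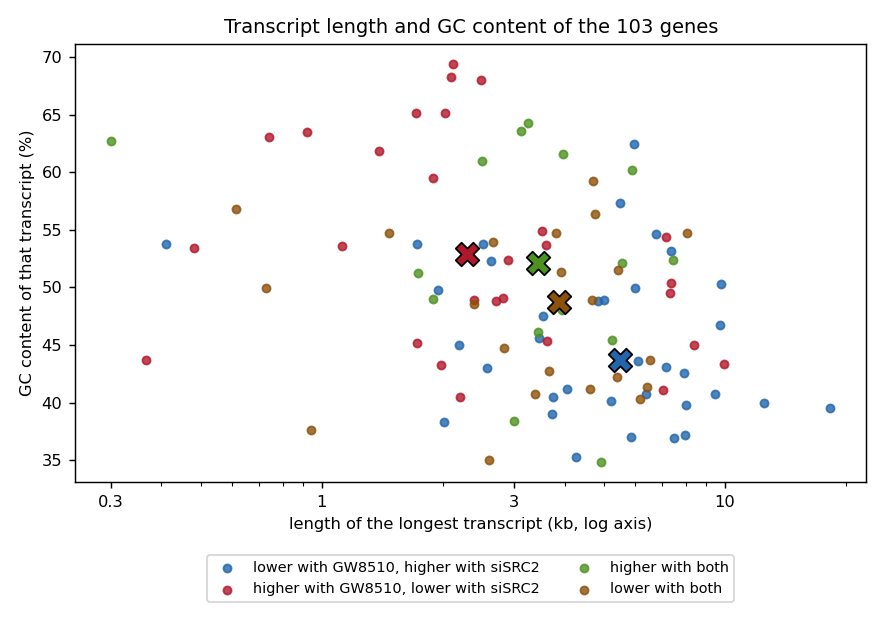
GC content (%) against length (kb, log axis) of the longest transcript for the 103 genes, coloured by direction, with a cross at the median of each class. The cross of genes lower with GW8510 and higher with siSRC2 lies at 43.7%, and that of the reverse pattern at 52.9%.

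Levels in the other groups of the series were given for the members listed there, 62 in the table of PD30 cells, which had DMSO and lipo3000 without NC, and 35 in the table of the second SRC siRNA, siSRC4. All tables share the control libraries, so only values are set side by side. PLAT had a mean of 278 ± 20.9 in PD30 cells, between the control at 134 and siSRC2 at 362. COL3A1 had 377 ± 18.5 and ELN 4.09 ± 0.125 in PD30 cells, above all 3 PD45 groups described here. KRT19 had 31.5 ± 2.03, CPA4 114 ± 16.4 and ANKRD1 0.343 ± 0.110 in PD30 cells, below all 3 of them. FABP4 had 23.0 ± 2.89 and IL7R 15.5 ± 1.91 in PD30 cells, also below them. For all of these examples the siSRC2 and PD30 means lay on the same side of the control mean. Other members did not share this. A2M had 11.9 ± 1.56, SCG2 0.943 ± 0.206 and SEMA6D 1.44 ± 0.222 in PD30 cells, below the control, while siSRC2 lay above it. ADGRG6 had 1.97 ± 0.252 in PD30 cells, above the control, while siSRC2 lay below it. The examples therefore do not stand for the 62 members.

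The 2 SRC siRNAs gave different levels for several members. Of the 38 genes lower with GW8510 and higher with siSRC2, 12 were listed for siSRC4. In the authors' deposited tables CHL1, GRIA4, HSD17B2, LRRN3, PDGFD, SSX2IP and TRPA1 were lower with siSRC4. CXCL12, LINC02035, MT1L, MT1X and P4HA3 were higher. Of the 28 genes of the reverse pattern 7 were listed, and only ANKRD1 was higher with siSRC4. Among 16 listed same-direction genes, ADAMTSL1 and ENSG00000285901 changed sign. TRPA1 was at 7.59, 5.66 and 7.97 with siSRC4, HSD17B2 at 7.95, 7.38 and 7.70 and LRRN3 at 13.7, 11.2 and 10.4, each below the control and below the siSRC2 libraries. ANKRD1 was at 13.3, 11.6 and 9.67 with siSRC4, above all siSRC2 libraries. Other members had siSRC4 means near those with siSRC2, such as CXCL12 with 5.91 against 6.0, P4HA3 with 4.31 against 5.41 and HLA-DMA with 7.55 against 8.32. PLAT, CEMIP, KLF2, GPRC5A, KRT19, PLAU and COL3A1 were not listed for siSRC4, so they could not be set beside it. Whether the siSRC2 pattern of a gene reflects the loss of SRC was not tested.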

How the data were processed

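Values of 9 libraries from 3 groups were used, in the 2 tables that the authors deposited for GW8510 and siSRC2, with the PD30 and siSRC4 tables for side values. The deposited signal is a normalized value per gene and library, whose unit is not given in the sources used here, so read depth is unknown and no counting interval is given. Per the file headers, the tables also hold the authors' fold ratio, log2 fold change, p-value and adjusted p-value. Tools listed in the submitters' processing notes, with no roles, are HISAT2, StringTie, RSEM, CASAVA, edgeR and DESeq2. The same notes give the mouse build GRCm38, although the identifiers are human. No coordinates were therefore taken from the tables. In the deposited table used for siSRC2 the mean column is titled siSRC and the library columns siSRC2, and the library names were followed.

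Means, SD and ratios were computed with Python 3.11.15 and pandas 2.3.3. The direct comparison used limma 3.58.1 (R 4.3.3) with a mean-variance trend on log2(signal + 1), which understates folds of low genes, over 9 libraries sharing one spread. Adjustment followed Benjamini-Hochberg with 15574 tests, the number of genes tested that the first row of the GW8510 table implies (12549 for siSRC2). The fit was tested on simulated data. Alternatives were the pseudocount, filter, libraries, trend, replicate block, scale and number of tests.

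The members and the 27 gene lists were chosen with earlier results of these data known. A list pattern that wrongly caught TBXAS1 was corrected after the files were seen. Of the 103 members, 47 fell in a list and 56 in none. Named by rule, among members with a symbol and a group mean of at least 5, were the 8 opposite genes with the largest direct difference, the 8 same-direction genes with the largest smaller fold, the 5 same-direction genes with the largest direct difference and up to 4 of each list by signal. All other genes were named after their values were seen. Transcript lengths came from GENCODE v29 and promoters from RefSeq. Of the members, 1 gene is counted but its own values are not reported here.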

Additional observations from a re-analysis of the deposited data

How the results depend on the processing

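The direct comparison called between 49 and 58 genes across pseudocount, filter, trend, scale, library and block alternatives, and 66 when the p-values were adjusted over the fitted members only, against 55. Among genes with the same direction, the count of 0 became 1 with the replicate block (FABP4), 6 with adjustment over the fitted members only (FABP4 among them), and ranged from 0 to 1 when libraries were left out (ELN, without the second siSRC2 library). The fitted members include the opposite genes, which differ by choice and ease the threshold for the others. The replicate numbers were not taken to pair the libraries compared. Same-numbered GW8510 and siSRC2 libraries had correlations of -0.08, -0.11 and -0.11 in their deviations, while siSRC2 with control gave 0.12, 0.17 and 0.17 and GW8510 with control 0.40, -0.07 and 0.23. With the block 57 genes were called, 54 of them shared with the fit without it, and ANKRD1 was called, as it was without the first siSRC2 library. With a fold of at least 2 required in both tables, 5 genes had the same direction and 8 opposite ones, because fewer genes were left. Of 624 alternative values of the named genes, 6 turned sign, all for differences near 0 that were not called. With libraries left out, ADAMTSL1 ranged from -0.051 (without the first GW8510 library) to 0.057, and was also below 0 without the second siSRC2 library (-0.014). GALNT15 ranged from -0.15 to 0.12 (without the third siSRC2 library). On the authors' scale GALNT15 was at 0.11, IL7R at 0.013 and COL3A1 at 0.0072. Of the rest, 608 kept their side of the threshold. Depth is unknown, so its limits could not be given.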
